A study of Mus musculus with 32 samples.

Results

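The transcripts examined are those of 34 genes of the interferon response and of class I antigen presentation, measured in the retinal pigment epithelium (RPE) of *rd1* mice. They were chosen by symbol as genes that interferons induce or that act in their signaling, with earlier results of these data known. All 34 were found among the 34453 genes of the count table. The table holds polyA RNA from both eyes of 16 mice, 7 mice at P20 and 9 other mice at P40 (postnatal days 20 and 40), so 32 libraries in all. In each mouse, a subretinal injection put AAV-Best1-GFP alone into 1 eye (the control eye) and AAV-Best1-GFP plus AAV-Best1-Nrf2 into its partner (the Nrf2 eye). By the labels, all groups therefore shared the *rd1* genotype, a loss-of-function allele of *Pde6b* that kills the rods, and all received an AAV that makes GFP. The human Best1 promoter drives both vectors in the RPE, and the Nrf2 vector carries the human cDNA in a capsid that differs from that of the GFP vector. Because only Nrf2 eyes received an additional vector, an effect of Nrf2 and an effect of more AAV or of its capsid cannot be told apart in these eyes. No eye without AAV was analyzed. The labels give every library as *rd1*, but the methods describe fewer *rd1* pairs at both ages than the labels do, and also pairs of CD1 mice at P40. The strain of the mice at P40 is therefore known here only from the labels.

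Cells detect viral nucleic acids with cytosolic sensors, whose signal leads to the release of type I interferons. These bind receptors on the same and on neighboring cells, and through JAK kinases activate factors such as STAT2, which with IRF9 enter the nucleus and switch on a large set of interferon-stimulated genes. Interferon γ is a strong inducer of the class I pathway, in which TAP moves peptides into the endoplasmic reticulum for loading onto a heavy chain (H2-K1 or H2-D1 in mice) paired with β2-microglobulin. RPE cells form the outer blood-retina barrier, can respond to interferons, and display class I molecules.

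The libraries held from 16548332 to 50542797 counts. The transgene (human *NFE2L2*) was at 0.924 to 1098 CPM (counts scaled to a common library size, as the rest of the levels below) in P20 control eyes, 1082 to 9506 in P20 Nrf2 eyes, 0 to 99.2 in P40 control eyes, and 3205 to 10438 in P40 Nrf2 eyes. Control eye 3 at P20 (1098 CPM) went against its label, and Nrf2 eye 4 at P20 (1082 CPM) was the lowest of its group. Their levels of the Nrf2 target *Gclc* were 544 and 539 CPM, and these libraries were the most alike of all pairs, with a median squared difference 3.78 times that of sampling noise, whereas every other pair was at 10.99 or more. They were kept as labelled, and results at P20 are also given without mice 3 and 4. The 10 RPE markers summed to between 11464 and 71498 CPM, although *Best1* itself was at only 0.274 to 4.18 CPM. RNA of other cells was present as well: 14 markers of macrophages and microglia summed to 148 to 740 CPM, whereas T and NK cell markers summed to at most 17.2 CPM, with *Gzmb* at 0 counts in 25 libraries and *Cd2* in 16. B cell markers reached at most 14.7 CPM. In a bulk sample, fewer cells of a type and less RNA per cell cannot be told apart.

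The 34 genes spanned a wide range of abundance. In the 16 control eyes, the median level per kilobase of the longest transcript was highest for *B2m* (381 CPM per kb) and *H2-D1* (330), followed by *Ifi27* (114) and *H2-K1* (88.9). The class I light and heavy chains thus led the group. Transcription factors lay between 7.29 (*Stat2*) and 46.0 CPM per kb (*Irf1*), with *Irf7* at 13.3 and *Irf9* at 9.84. The lowest were *Rsad2* (0.344), *Mx1* (0.204), and *Cxcl10* (0.154), and only *Cxcl10* and *Mx2* had any library at 3 counts or fewer. Levels of near-identical genes are less certain, since 68.8% of the 31-base words of *Oas1a*, 61.8% of those of *Ifit3*, 55.2% of *Ifit3b*, 27.5% of *H2-D1*, and 23.3% of *H2-K1* also occurred in transcripts of other genes, and the class I heavy chains are highly polymorphic between mouse strains. *Bst2*, *Stat2*, *B2m*, and *Ifi27* shared none.

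Promoters of the 34 genes were searched for DNA sequences that interferon-activated factors read. Those of genes that passed in at least 1 comparison are shown where an entry was found. Promoter sequences (RefSeq, GRCm38.p6, 250 bases before to 50 after the start of transcription) were found for 25 of the 34 genes. The core of the interferon-stimulated response element, written GAAANNGAA and searched on both strands, occurred in 15 of the 25 (60.0%), compared with 9.76% of the 27025 genes with a promoter in the same table. The γ-activated site, TTCNNNGAA, occurred in 5 of the 25 (against 9.55% of all), and the core of the antioxidant response element to which Nrf2 binds, TGACNNNGC, in 6 of the 25 (against 13.99%). A match gives letters in a window and not a bound site. In *Bst2* (chr8:71537423-71537722, minus strand) 2 overlapping interferon cores, at −130 and −124 from the gene start, are in capitals, and a γ-activated site at −136 runs into the first of them. In *Rsad2* (chr12:26456403-26456702, minus strand), *Stat2* (chr10:128270248-128270547, plus strand), and *Ifi44* (chr3:151749861-151750160, minus strand), capitals mark an interferon core on the opposite strand, at −119, −221, and −3. *H2-K1* (chr17:34000284-34000583, minus strand) had no match to GAAANNGAA in this window, and its capitals mark an antioxidant core on the opposite strand at −51. *Rsad2* (at −231) and *Ifi44* (at 11) also held an antioxidant core on the opposite strand, not in capitals. Other spellings of the interferon element were not searched in any promoter, so the missing match does not show that *H2-K1* lacks such an element. *Mx1* and *Ifi27* had no entry.
Bst2: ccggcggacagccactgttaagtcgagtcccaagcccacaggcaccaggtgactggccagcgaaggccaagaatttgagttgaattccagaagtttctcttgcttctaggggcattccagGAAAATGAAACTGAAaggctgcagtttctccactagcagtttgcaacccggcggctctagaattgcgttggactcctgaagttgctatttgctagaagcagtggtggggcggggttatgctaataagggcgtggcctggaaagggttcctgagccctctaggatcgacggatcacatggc
Rsad2: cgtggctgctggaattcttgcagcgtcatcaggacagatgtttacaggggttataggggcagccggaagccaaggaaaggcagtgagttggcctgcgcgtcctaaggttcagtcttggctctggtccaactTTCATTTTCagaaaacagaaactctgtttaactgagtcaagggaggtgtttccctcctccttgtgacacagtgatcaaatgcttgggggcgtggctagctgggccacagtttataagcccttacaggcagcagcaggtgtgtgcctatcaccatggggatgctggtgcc
Stat2: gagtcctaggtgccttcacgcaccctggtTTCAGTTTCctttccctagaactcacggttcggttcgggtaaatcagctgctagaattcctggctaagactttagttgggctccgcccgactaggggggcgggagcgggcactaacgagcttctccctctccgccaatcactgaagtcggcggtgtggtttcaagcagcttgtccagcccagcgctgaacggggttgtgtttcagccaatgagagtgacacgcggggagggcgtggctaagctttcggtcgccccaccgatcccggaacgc
Ifi44: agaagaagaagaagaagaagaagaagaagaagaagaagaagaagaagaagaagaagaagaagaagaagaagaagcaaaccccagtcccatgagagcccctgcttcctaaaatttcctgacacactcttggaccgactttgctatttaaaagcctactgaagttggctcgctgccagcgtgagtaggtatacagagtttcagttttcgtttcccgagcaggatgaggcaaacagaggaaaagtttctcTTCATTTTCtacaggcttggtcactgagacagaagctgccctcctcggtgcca
H2-K1: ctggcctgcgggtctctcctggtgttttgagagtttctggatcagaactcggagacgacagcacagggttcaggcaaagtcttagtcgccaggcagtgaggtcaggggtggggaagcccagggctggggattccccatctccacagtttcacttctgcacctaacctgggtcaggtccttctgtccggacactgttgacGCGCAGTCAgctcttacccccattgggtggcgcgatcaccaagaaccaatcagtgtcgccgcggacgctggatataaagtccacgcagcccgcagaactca

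The first question was how the interferon genes of an Nrf2 eye compared with those of the other eye of the same mouse at P20. *Bst2* rose and *Stat2* fell in Nrf2 eyes, and no other of the 33 genes tested passed an adjusted *P* of 0.05 (edgeR quasi-likelihood test, blocked by mouse). In this comparison 3.41% of all 16303 genes passed, 2.93% higher and 0.485% lower, so 1 rise among 33 genes was near the background. By direction alone, 9 of the 33 genes were higher and 24 lower, with a median log2 fold change of −0.16, compared with −0.04 over all genes. An unadjusted *P* under 0.05 was reached by 5 of the 33, and by 2964 of all 16303 genes.

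*Bst2* (chromosome 8, 71534255-71537456) encodes tetherin, a membrane protein that holds budding enveloped viruses at the cell surface. Its level was 14.5, 22.3, and 29.2 CPM (lowest, median, and highest) in P20 control eyes and 25.9, 49.2, and 76.8 CPM in P20 Nrf2 eyes. The groups overlapped only through Nrf2 eye 4, and every other Nrf2 eye lay above every control eye. On the log2 scale the rise was 1.00 ± 0.21 (SE, adjusted *P* = 0.038). It was seen in 7 of 7 mice, by 0.07 (mouse 4) to 1.91 (mouse 1) on the log2 scale. *Stat2* (chromosome 10, 128270559-128292849), a transcription factor of type I interferon signaling, was at 29.4, 33.6, and 44.3 CPM in control eyes and 18.1, 22.6, and 30.9 CPM in Nrf2 eyes. The highest Nrf2 eyes reached the lowest control eyes, and the level was lower in the Nrf2 eye of 7 of 7 mice. Its log2 fold change was −0.58 ± 0.12 (adjusted *P* = 0.034). Without mice 3 and 4, *Bst2* passed (log2 fold change 1.21, adjusted *P* = 0.034) and *Stat2* did not (−0.63, adjusted *P* = 0.059). Both calls were also lost when any one of mice 1, 2, 3, 5, 6, and 7 was left out, with adjusted *P* of up to 0.13 for *Bst2* and 0.12 for *Stat2*.

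At P20 the class I genes *H2-K1* and *B2m* had higher levels in most Nrf2 eyes, and all 4 transcription factors had lower medians. *H2-K1*, a classical class I heavy chain, was at 77.7, 138, and 211 CPM in control eyes and 166, 232, and 334 CPM in Nrf2 eyes (log2 fold change 0.77 ± 0.21, adjusted *P* = 0.095). Its light chain *B2m* was at 221, 306, and 399 CPM in control eyes and 358, 409, and 549 CPM in Nrf2 eyes, higher in 7 of 7 mice (0.45 ± 0.13, adjusted *P* = 0.10). Neither passed with edgeR, whereas both passed with DESeq2 and with limma voom, which called 11.97% and 15.98% of all genes. The other heavy chain, *H2-D1*, had a log2 fold change of −0.08 ± 0.26, and the peptide transporter subunit *Tap1* of −0.24 ± 0.34. The log2 fold changes of the 4 transcription factors were all below 0, with a median of −0.73. Besides *Stat2*, *Irf7*, the master regulator of type I interferon genes, had −0.96 ± 0.50, *Irf1* −0.89 ± 0.55, and *Irf9*, the DNA-binding partner of STAT2, −0.09 ± 0.14. The 3 genes of the oligoadenylate synthetase family, named for enzymes whose product activates RNase L, were lower as well, *Oasl2* by the most (−1.11 ± 0.65), and so were the ubiquitin-like modifier *Isg15* (−0.78 ± 0.63) and the protease that removes it, *Usp18* (−0.63 ± 0.25, unadjusted *P* = 0.037). *Usp18* was lower in 7 of 7 Nrf2 eyes but by only 0.01 in mouse 2. Sensors ran from −0.65 ± 0.81 (*Zbp1*) to 0.32 ± 0.38 (*Ifih1*), and IFIT genes from −0.55 ± 0.43 (*Ifit1*) to 0.07 ± 0.22 (*Ifit3*). Of the large GTPases, *Mx1*, *Mx2*, and *Gbp3* were higher by at most 0.41 ± 0.54 (*Mx1*), and *Gbp2* had −0.71 ± 0.54. Apart from *Bst2*, the induced genes without a common function were between −0.56 ± 0.48 (*Parp14*) and −0.04 ± 0.42 (*Ifi44*). *Cxcl10* was too scarce for a test at P20, with at most 1.26 CPM. The standard errors of most of these genes approached or exceeded the differences. *Irf1*, *Irf7*, and *Oasl2* each ran from −2.38 or below (mouse 6) to 1.87 or above (mouse 4) between the eyes of a mouse. Without mouse 4, whose Nrf2 eye had the lowest transgene level of its group, *Irf1*, *Irf7*, *Oasl2*, and *Ifi35* joined *Stat2* among the genes that passed as lower, and *Bst2* passed as higher. In that fit 12.2% of all 16330 genes passed (6.04% higher and 6.20% lower), compared with 3.41% when all mice were included. Without both mouse 3 and mouse 4, *Bst2* alone passed.

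The same comparison at P40, in different mice, gave 4 genes that rose in Nrf2 eyes and none that fell: *H2-K1*, *Bst2*, *Mx1*, and *Rsad2*. All 34 genes were tested, and 24 were higher and 10 lower, with a median log2 fold change of 0.29 against −0.03 over all genes. In this comparison 4.57% of all 16686 genes passed, 3.33% higher and 1.23% lower, a smaller share than the 4 of 34. Because the 34 genes were chosen with earlier results of these data known, the larger share is description only. An unadjusted *P* under 0.05 was reached by 8 of the 34, and by 2173 of all 16686 genes. Besides the 4 that passed, the 8 were *Ifih1*, *Cxcl10*, *Mx2*, and *Ifit1*.

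*H2-K1* (chromosome 17, 33996017-34000347) was at 77.8, 147, and 209 CPM in P40 control eyes and 152, 283, and 448 CPM in P40 Nrf2 eyes. Only the Nrf2 eyes of mice 3 and 6 lay within the range of the control eyes. Its log2 fold change was 1.01 ± 0.18 (adjusted *P* = 0.0065), higher in 8 of 9 mice, with −0.06 in mouse 6, and it passed under every alternative that was run. *Bst2* was at 15.8, 21.1, and 54.6 CPM in control eyes and 43.5, 58.6, and 107 CPM in Nrf2 eyes. The overlap came from control eyes 3 and 5 (47.6 and 54.6 CPM), and the other 7 control eyes lay below every Nrf2 eye. *Bst2* was higher in 9 of 9 Nrf2 eyes, by 0.10 (mouse 5) to 2.76 (mouse 8), with a log2 fold change of 1.23 ± 0.26 (adjusted *P* = 0.018), and it did not pass without mouse 4 or without mouse 7.

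The other 2 genes that rose at P40 were scarce. *Mx1* (chromosome 16, 97447035-97462907), a GTPase that blocks influenza virus in the nucleus, was at 0.241, 0.646, and 1.22 CPM in control eyes and 0.677, 1.55, and 6.66 CPM in Nrf2 eyes. In 7 mice the Nrf2 eye lay above every control eye, and only the Nrf2 eyes of mice 6 and 9 did not. Its log2 fold change was 1.72 ± 0.39 (adjusted *P* = 0.025), higher in 8 of 9 mice. *Rsad2* (chromosome 12, 26442746-26456452), which encodes viperin, was at 0.198, 0.934, and 2.99 CPM in control eyes and 0.902, 3.42, and 6.82 CPM in Nrf2 eyes, higher in 8 of 9 mice. Its groups overlapped more, since Nrf2 eyes 2, 3, 6, and 8 lay within the range of the control eyes. The log2 fold change was 1.78 ± 0.44 (adjusted *P* = 0.038). *Mx1* and *Rsad2* each passed in 2 of the 9 fits that left out 1 mouse, and *Rsad2* did not pass without the mouse as a block (adjusted *P* = 0.071).

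**Figure D1:**
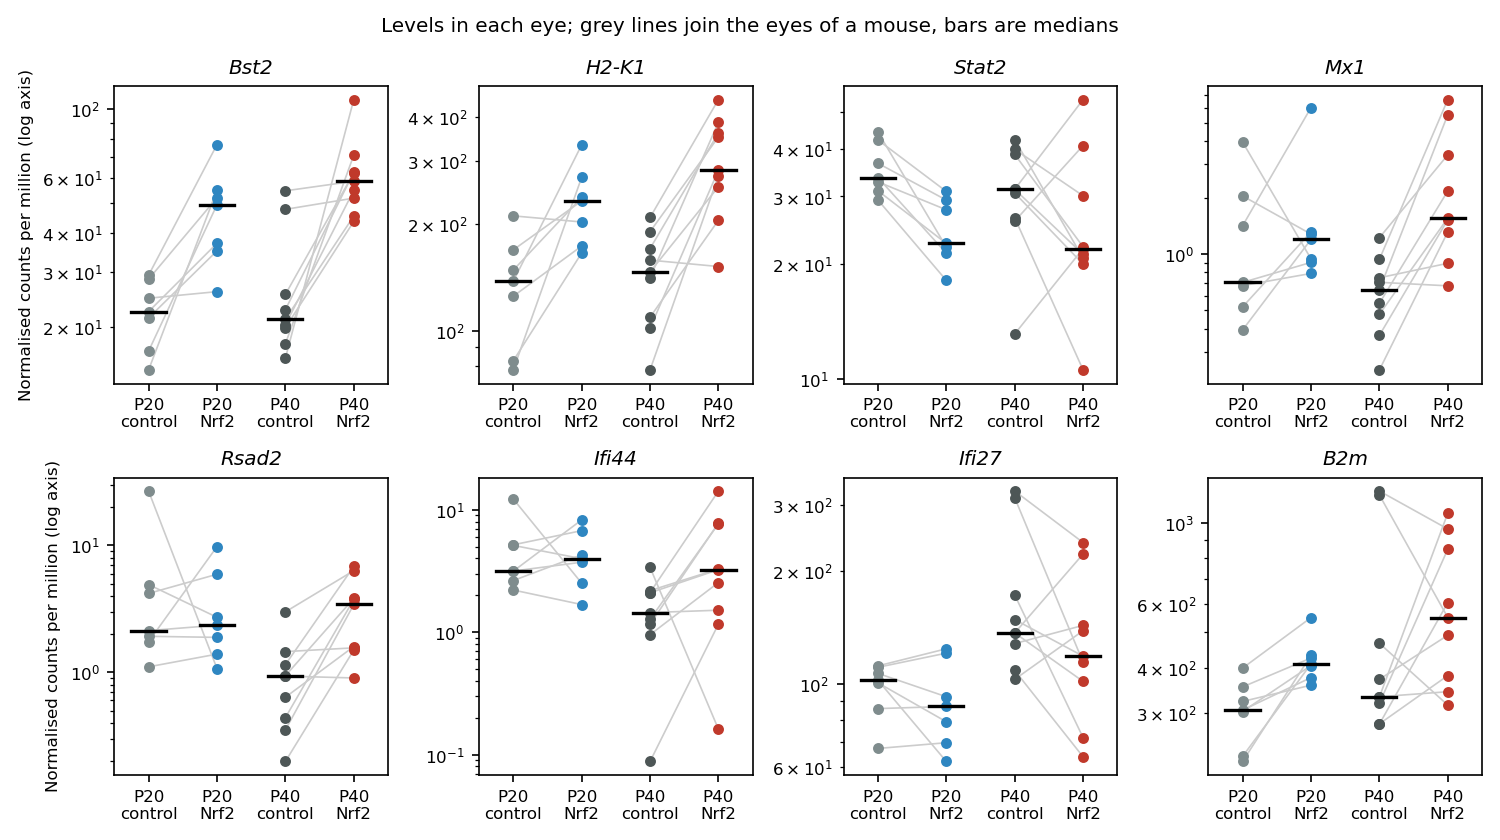
Levels of 8 genes in each of the 32 eyes in CPM (vertical log axes) by age and treatment, where points are eyes, grey lines join the eyes of a mouse, and bars are medians. *Bst2* medians were 22.3 and 49.2 CPM in control and Nrf2 eyes at P20 and 21.1 and 58.6 CPM at P40, whereas *Stat2* medians were 33.6 and 22.6 CPM at P20 and 31.3 and 21.9 CPM at P40.

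Among the remaining roles at P40, all 4 IFIT genes, a family known for binding foreign RNA, were higher without passing, with a median log2 fold change of 0.35. *Ifit1* had 0.73 ± 0.33 (unadjusted *P* = 0.046), *Ifit3* 0.37 ± 0.25, *Ifit3b* 0.33 ± 0.21, and *Ifit2* 0.29 ± 0.25. All 4 class I genes were higher too, *H2-D1* by 0.32 ± 0.23, *B2m* by 0.30 ± 0.30, and *Tap1* by 0.03 ± 0.37. The chemokine *Cxcl10*, which attracts T cells, had the largest log2 fold change of the 34 (2.52 ± 0.99, unadjusted *P* = 0.026, adjusted *P* = 0.26), but its medians were 0.216 and 0.860 CPM. Of the sensors, *Ifih1* (MDA5) had 0.69 ± 0.26 (unadjusted *P* = 0.022) and was higher in 8 of 9 mice, *Dhx58* (LGP2) had 0.39 ± 0.36, *Ddx58* (RIG-I) −0.07 ± 0.16, and the sensor of left-handed nucleic acids *Zbp1* −0.17 ± 0.50. *Mx2*, the paralog of *Mx1*, had 1.09 ± 0.47 (unadjusted *P* = 0.040) and was higher in 8 of 9 mice, although 11.8% of its 31-base words occurred in other transcripts. *Stat2*, which fell at P20, had −0.33 ± 0.25 at P40 (adjusted *P* = 0.70) and was lower in 6 of 9 mice. *Gbp3* (−0.43 ± 0.28), *Ifi27* (−0.42 ± 0.23), and *Irf1* (−0.40 ± 0.49) were the lowest of the group, and none of them passed. The other 13 genes, among them *Isg15*, *Usp18*, *Irf7*, *Rtp4*, and the oligoadenylate synthetases, had values from −0.30 (*Ifi35*) to 1.32 (*Ifi44*).

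Markers of other cells moved with the treatment, some of them already at P20. Of 14 macrophage and microglia markers, 7 passed as higher in Nrf2 eyes at P40 (median log2 fold change 1.34) and none at P20, where 12 were higher (median 0.82). Medians of the complement gene *C1qa*, made in the retina by microglia and macrophages, were 9.91 and 17.6 CPM in control and Nrf2 eyes at P20 and 9.37 and 46.0 CPM at P40. The summed level of the 14 was 246 to 496 CPM in control eyes and 198 to 740 CPM in Nrf2 eyes at P20, and 148 to 507 CPM and 170 to 577 CPM at P40. The sum was higher on the Nrf2 side in 4 of 7 and 6 of 9 mice. Much of it was *Csf1r*, the receptor for the growth factor CSF1, whose medians were lower on the Nrf2 side (163 and 82.3 CPM in control and Nrf2 eyes at P20, 109 and 49.0 CPM at P40). Counted marker by marker, 0 to 13 of the 14 were higher in the Nrf2 eye of a mouse at P20, with more than 7 in 6 of 7 mice, and 11 to 13 were higher in each of the 9 mice at P40. The part of these cells in the rise of *Bst2*, *H2-K1*, *Mx1*, and *Rsad2* was not tested. Of 10 RPE markers, 5 passed as lower at P40 (median −0.82), and all 6 cone markers did (median −4.77). At P20, 1 of the 10 RPE markers (median −0.26) and 2 of the 6 cone markers (median −4.23) passed as lower. None of 8 rod markers passed at P20 (median −1.30), and 1 of 7 tested passed as lower at P40. Also at P40, 1 of 6 fibroblast, 1 of 5 dendritic cell, and 1 of 3 tested neutrophil markers passed as higher. T and NK cell markers were at 7.90 CPM or less in every P40 library, and none of the 3 that were abundant enough for a test passed.

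Although 2 genes passed at P20 and 4 at P40, none of the 34 genes passed a test of whether the Nrf2 effect differed by age (edgeR quasi-likelihood test over all 32 libraries, which called 0.00557% of 17959 genes). An unadjusted *P* under 0.05 was reached by 3 of the 34, and by 429 of all 17959 genes. The adjusted *P* was 1.00 for all 34, and DESeq2 and limma voom called none of them either. By direction, 30 of the 34 had a higher effect at P40 than at P20, with a median difference of 0.47 against 0.03 over all genes. The genes of smallest unadjusted *P* were *Usp18* (a change of 0.97 ± 0.41 on the log2 scale), *Rsad2* (1.92 ± 0.83), *Ifit1* (1.29 ± 0.57), *Mx1* (1.32 ± 0.67), and *Irf7* (1.32 ± 0.76). The unadjusted *P* of these 5 in the edgeR model ran from 0.030 to 0.10. The differences of *Bst2* (0.23 ± 0.36) and *H2-K1* (0.25 ± 0.28) were smaller than their standard errors. Of the 33 genes tested at both ages, 8 were higher in Nrf2 eyes at both, 9 were lower at both, 15 were lower at P20 and higher at P40, and 1 was the reverse.

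**Figure D2:**
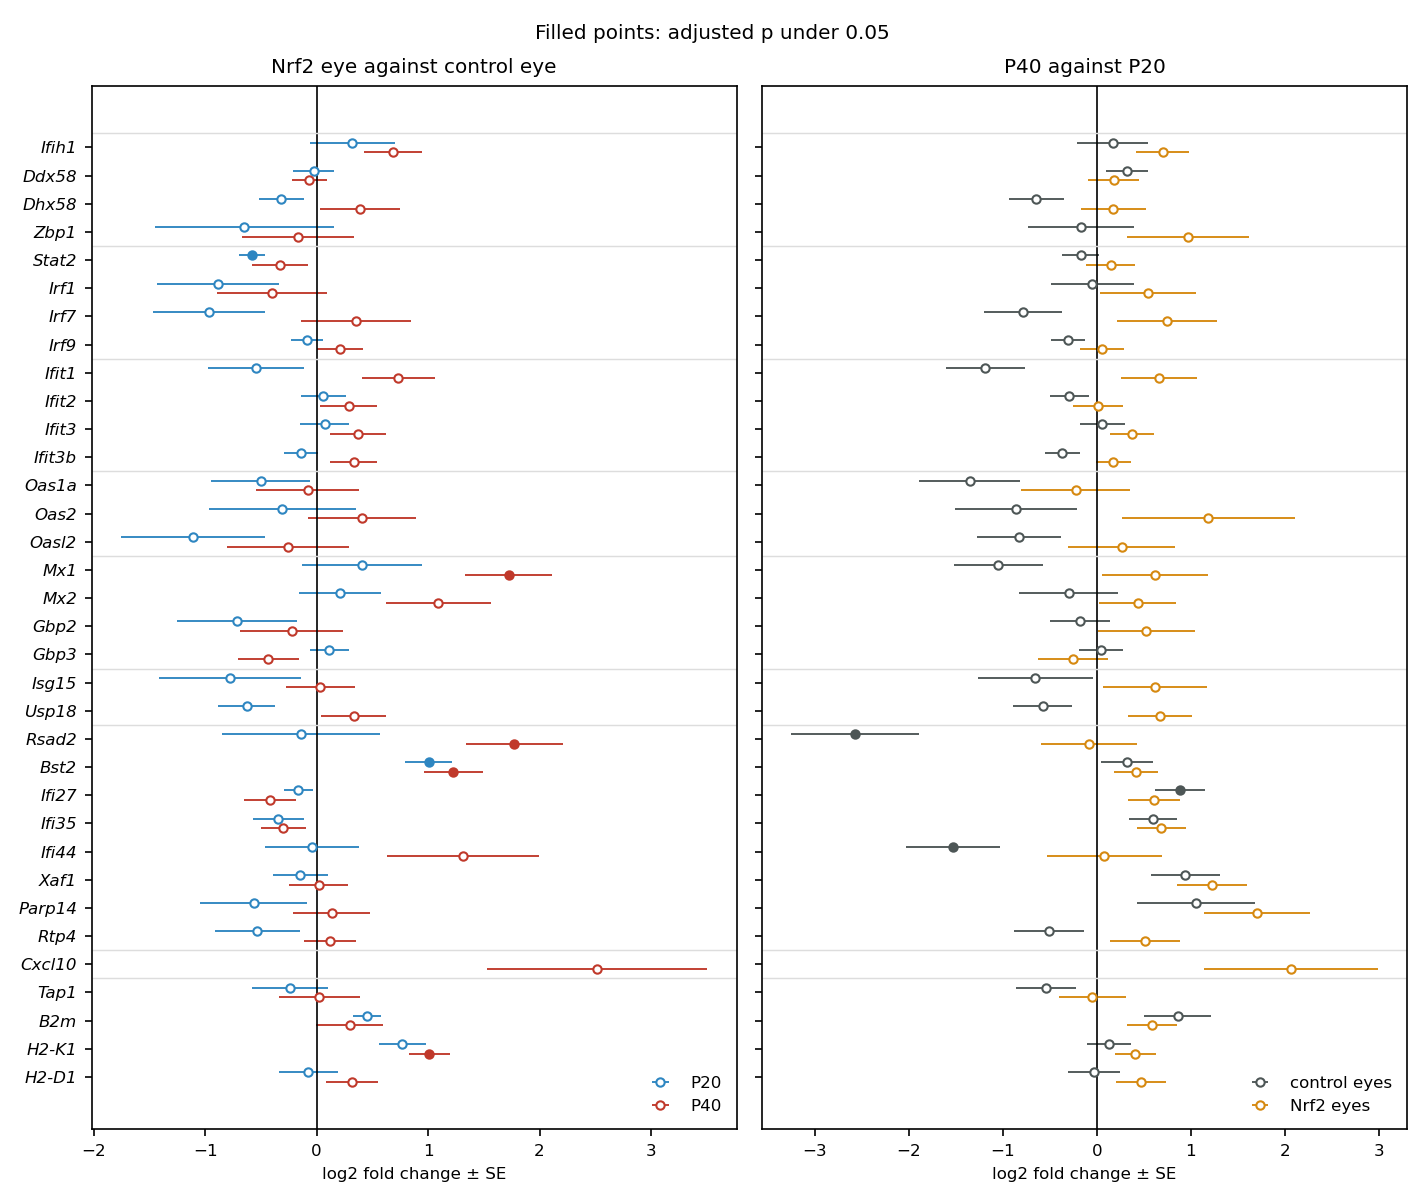
Log2 fold changes with their SE of each gene (horizontal axes), grouped by role, for Nrf2 eyes against control eyes at both ages (left) and for P40 against P20 in control and in Nrf2 eyes (right), with filled points where the adjusted *P* was under 0.05. *Bst2* was to the right of 0 at both ages of treatment, *Stat2* to the left, and *Rsad2* and *Ifi44* lay to the left of 0 with age in control eyes (−2.57 and −1.53).

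With age, from P20 to P40 in control eyes, *Ifi27* rose, and *Ifi44* and *Rsad2* fell. Of the 33 genes tested, 11 were higher and 22 lower at P40, and the median log2 fold change was −0.29 compared with 0.00 over all genes. An unadjusted *P* under 0.05 was reached by 10 of the 33, and by 5917 of all 16832 genes. Over all 16832 genes, 14.8% passed, 8.34% higher and 6.42% lower, a larger share than the 3 of 33. The mice at the 2 ages are different animals, and the control eyes of this comparison are those used for the Nrf2 effects above, so these results are not independent of them.

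*Rsad2* was at 1.10, 2.13, and 26.8 CPM in P20 control eyes and 0.198, 0.934, and 2.99 CPM in P40 control eyes. The highest value was that of P20 eye 6, and 6 of the 9 eyes at P40 lay below every eye at P20. The log2 fold change was −2.57 ± 0.68 (adjusted *P* = 0.029), and without P20 eye 6 it was −1.37 and did not pass. *Ifi44* (chromosome 3, 151730922-151749960), an interferon-induced cytoplasmic protein, was at 2.21, 3.16, and 12.3 CPM at P20 and 0.0879, 1.45, and 3.38 CPM at P40. Only P40 eye 6 was above the P20 median, and the log2 fold change was −1.53 ± 0.50 (adjusted *P* = 0.048). *Ifi27* (chromosome 12, 103434211-103440239), which encodes a small membrane protein of mitochondria, was at 67.3, 102, and 112 CPM at P20 and 103, 137, and 327 CPM at P40. The 2 high eyes were P40 eyes 3 and 5 (327 and 314 CPM), and P40 eyes 1 and 9 lay within the range at P20. Its log2 fold change was 0.89 ± 0.26 (adjusted *P* = 0.038). P40 eyes 3 and 5 also had the highest *B2m* (1224 and 1194 CPM, against 280 to 467 CPM in the other 7), the highest *Bst2*, and the highest summed RPE markers of the P40 control eyes (69057 and 51386 CPM). No member passed without P20 eye 6, without P40 eye 3, without P40 eye 5, or without P20 mice 3 and 4. In these fits 8.913%, 5.672%, 3.625%, and 0.9157% of all genes passed, each a smaller share than with all eyes. *Rsad2* alone passed without any P20 eye other than eye 6 or without P40 eye 2. There the share of all genes was 2.773% (without P20 eye 5) to 6.676% (without P20 eye 4). Calls over all genes thus fell as well, so the lost calls are not particular to the 3 genes. In the same comparison 4 of 6 fibroblast markers fell, whereas 1 of 14 macrophage and microglia markers did, and the part of such cells in the change of the 3 genes was not tested.

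In Nrf2 eyes no member passed between P20 and P40 with edgeR, where 0.502% of 16745 genes did. An unadjusted *P* under 0.05 was reached by 7 of the 34, and by 4326 of all 16745 genes. By direction, 30 of the 34 were higher at P40, with a median log2 fold change of 0.49 against 0.02 over all genes. The 5 of smallest *P* were *Xaf1*, a regulator of apoptosis (1.22 ± 0.38, adjusted *P* = 0.11), the ADP-ribosyltransferase *Parp14* (1.70 ± 0.56, adjusted *P* = 0.11), the leucine zipper protein *Ifi35* (0.68 ± 0.26, adjusted *P* = 0.13), *Ifih1* (0.70 ± 0.28, adjusted *P* = 0.14), and *Ifi27* (0.61 ± 0.27, adjusted *P* = 0.17). *Parp14* was at 1.93, 4.37, and 14.3 CPM in P20 Nrf2 eyes and 2.17, 11.3, and 45.9 CPM in P40 Nrf2 eyes, so the groups overlapped over most of the range at P20. *Xaf1* was at 6.60, 8.91, and 13.1 CPM and at 7.67, 15.97, and 50.5 CPM. In control eyes the same genes had log2 fold changes of 0.94 ± 0.37 (*Xaf1*), 1.06 ± 0.63 (*Parp14*), 0.59 ± 0.25 (*Ifi35*), 0.17 ± 0.38 (*Ifih1*), and 0.89 ± 0.26 (*Ifi27*). *Rsad2*, which fell with age in control eyes, had −0.09 ± 0.51 in Nrf2 eyes, and *Ifi44* 0.08 ± 0.61. The DESeq2 test called *Xaf1* and *Parp14*, and limma voom called 7 genes in this comparison, where they called 10.9% and 13.2% of all genes.

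Eyes of 1 group varied widely in these genes. Between the eyes of a mouse at P20, from 6 to 31 of the 34 genes were higher in the Nrf2 eye, and the mean log2 difference ran from −0.98 (mouse 6) to 0.94 (mouse 4), with a median of −0.12. At P40, from 7 to 34 genes were higher, the mean difference ran from −0.92 (mouse 6) to 1.503 (mouse 1), with a median of 0.40, and 8 of 9 mice had a mean above 0. In mouse 1 at P40, all 34 genes were higher in the Nrf2 eye, as were 12 of its 14 macrophage and microglia markers. In mouse 6 at P40, 7 of the 34 genes were higher, and 11 of the 14 markers.

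**Figure D3:**
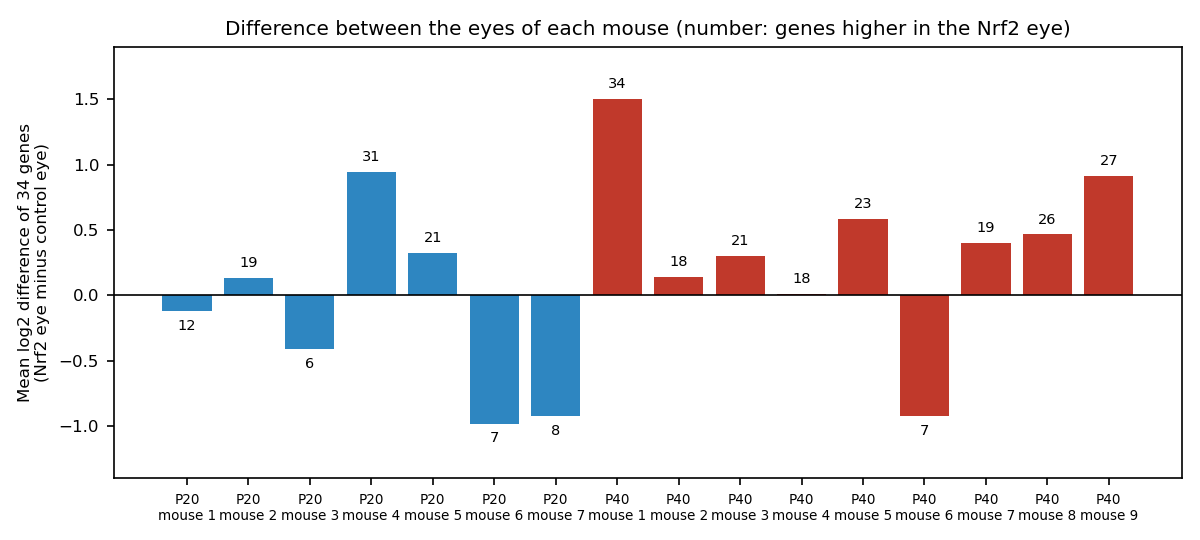
Mean log2 difference of the 34 genes between the Nrf2 eye and the control eye (vertical axis) for each mouse (bars, blue at P20 and red at P40), with the number of genes higher in the Nrf2 eye at each bar. The mean was above 0 in 3 of 7 mice at P20 and in 8 of 9 at P40, where mouse 6 was at −0.92.

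Nrf2 eye 1 at P40 had the highest level of all 32 libraries for 10 of the 34 genes, among them *Irf7* (83.9 CPM), *Oasl2* (79.4 CPM), and *Gbp2* (52.9 CPM). Nrf2 eye 6 at P40 had the lowest for 10, with *Irf7* at 2.77 CPM and *Oasl2* at 3.87 CPM. The levels thus spanned a range between eyes of the same treatment and age that was wider than most differences between groups. With the group means removed, the correlation between 2 of the 34 genes across the 32 libraries had a median Pearson *r* of 0.31 over the 561 pairs, with 77.4% of pairs above 0. These points share library depth and cell composition, and eyes of the same mouse are included. Genes that varied together were *Irf1*, *Irf7*, *Oasl2*, *Gbp2*, and *Tap1* (*r* of 0.84 to 0.97 between them), and *Isg15*, *Rtp4*, *Oas1a*, *Usp18*, and *Ifit1* (0.64 to 0.93). *B2m*, *Ifi27*, *Xaf1*, and *Bst2* also varied together (0.42 to 0.83). All 3 sets were picked after the values were seen, and *B2m* ran against the first set (−0.54 to −0.32). Without the Nrf2 eyes of mice 1 and 6 at P40, the first set had *r* of 0.77 to 0.97 and *B2m* against it −0.49 to −0.21. The mean level of the 34 genes in one eye had an *r* of −0.01 with that in the other eye over the 7 mice at P20, and of 0.09 over the 9 mice at P40.

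Other genes of the pathway were taken from a list of 115 ligands, receptors, kinases, sensors, and induced genes, also chosen with earlier results known. None of the 10 interferon ligands passed the filter on low counts: *Ifna1*, *Ifna4*, *Ifna5*, and *Ifne* were at 0 counts in all 32 libraries, *Ifnb1* was at 0 in 28 with at most 15 counts, and *Ifng* was at 0 in 31 with 8 counts in the remaining one. The highest counts of *Ifnb1* and *Ifng* were in Nrf2 eye 2 at P20, which also had the most T and NK cell and B cell marker RNA of all libraries (17.2 and 14.7 CPM). At P20, 2 of the 99 genes tested rose with edgeR and none fell, near the 3.41% of all genes. Of the 99, 12 had an unadjusted *P* under 0.05, as did 2964 of all 16303 genes. DESeq2 called 8 higher and limma voom 6 higher and 7 lower, where they called 11.97% and 15.98% of all genes. The receptor chain *Ifnar2* rose from 21.2, 44.2, and 53.0 CPM in control eyes to 56.0, 85.4, and 116 CPM in Nrf2 eyes, with no overlap between the groups, higher in 7 of 7 mice (log2 fold change 1.10 ± 0.19, adjusted *P* = 0.020). The GTPase *Igtp*, which acts on the vacuoles of intracellular parasites, rose from 8.09, 10.7, and 24.3 CPM to 14.02, 31.7, and 68.1 CPM (1.51 ± 0.22, adjusted *P* = 0.012). These ranges overlapped, but *Igtp* was higher in 7 of 7 mice. Both passed without mice 3 and 4 (adjusted *P* = 0.027 for *Ifnar2* and 0.0081 for *Igtp*), but *Ifnar2* did not pass without mouse 1, 3, 5, or 7, nor *Igtp* without mouse 7.

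At P40, 6 of the 100 pathway genes tested rose in Nrf2 eyes and none fell with edgeR, against 3.33% of all genes called higher. Of the 100, 15 had an unadjusted *P* under 0.05, as did 2173 of all 16686 genes. DESeq2 and limma voom each called 9 higher and none lower, against 5.23% and 5.20% of all genes called higher. *Igtp* rose from 9.64, 12.1, and 18.4 CPM to 16.02, 47.5, and 91.4 CPM, higher in 9 of 9 mice (1.94 ± 0.26, adjusted *P* = 0.00078). The groups overlapped only at the lowest Nrf2 eye, that of mouse 6. The others were *Trim30a*, a brake on Toll-like receptor signaling (1.68 ± 0.30, adjusted *P* = 0.0056), the monocyte chemoattractant *Ccl2* (2.05 ± 0.41, adjusted *P* = 0.014), *Lgals3bp*, a secreted glycoprotein (0.70 ± 0.15, adjusted *P* = 0.019), *Socs1*, an inhibitor of JAK kinases (1.08 ± 0.24, adjusted *P* = 0.024), and *Irgm2*, a GTPase of the same family as *Igtp* (1.71 ± 0.39, adjusted *P* = 0.025). *Igtp* and *Trim30a* passed under every alternative that was run, *Ccl2* under all except the fit without the mouse as a block (adjusted *P* = 0.35), whereas *Lgals3bp* passed under 11, *Socs1* under 9, and *Irgm2* under 5 of 14. *Ccl2* was at or below 2.68 CPM in every P40 eye. The receptor *Ifnar2* was at 26.9, 50.8, and 94.4 CPM in control eyes and 64.1, 99.6, and 140 CPM in Nrf2 eyes at P40 and did not pass.

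With age in control eyes, 7 of 100 pathway genes passed, 2 higher and 5 lower, a smaller share than the 14.8% of all genes. The RNA sensor and RNase L activator *Oas3* fell from 1.84, 5.17, and 15.96 CPM to 0.368, 1.37, and 3.02 CPM (−2.13 ± 0.49, adjusted *P* = 0.020) and passed under every alternative that was run. The groups overlapped through the P20 eyes of mice 1 and 4, which lay below the highest P40 eye. *Calr*, a chaperone of class I loading, fell from 685, 749, and 929 CPM to 333, 496, and 660 CPM without overlap (−0.66 ± 0.15, adjusted *P* = 0.019). The RNA editing enzyme *Adar* (−1.08 ± 0.30), the nucleotide kinase *Cmpk2*, a neighbor of *Rsad2* (−1.41 ± 0.39), and *Trafd1* (−0.90 ± 0.28) fell as well, whereas the transcription factor *Irf3* (0.67 ± 0.19) and the phosphatase *Ptpn2*, an inhibitor of JAK-STAT signaling (0.48 ± 0.14), rose. The adjusted *P* of these 5 was between 0.032 and 0.040. *Adar*, *Irf3*, and *Cmpk2* passed under 12 of 21 alternatives, *Ptpn2* under 9, and *Trafd1* under 8, whereas *Calr* passed under 20. None of 102 pathway genes passed with edgeR for age in Nrf2 eyes (0.502% of all genes did) or in the test of whether the Nrf2 effect differed by age. For age in Nrf2 eyes, 26 of the 102 had an unadjusted *P* under 0.05, as did 4326 of all 16745 genes. In the test between the ages 1 of the 102 did, and 429 of all 17959 genes. With age in Nrf2 eyes, DESeq2 called 12 of the 102 pathway genes higher and 2 lower, and limma voom 11 higher and 6 lower (10.9% and 13.2% of all genes). Neither called any of the 102 in the test between the ages.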

How the data were processed

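Purified RPE RNA was amplified with an ultra-low-input kit by the authors, and libraries of polyA RNA were run in 2 sequencing runs that were not assigned to libraries, and the run is not modeled. The submitters' processing notes name FastQC and Salmon 0.9.1. The authors deposited estimated counts for each gene, rounded to whole numbers, with no normalization for depth or length. The methods also describe STAR alignments to mm10 counted by featureCounts, and do not say which counter gave this table. Of 34453 genes, 4268 had no count.

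Counts were analyzed in R 4.3.3 with edgeR 4.0.16 (filterByExpr, TMM, quasi-likelihood test without robust dispersion), with Benjamini-Hochberg adjustment across every gene tested and a threshold of 0.05. Nrf2 and control eyes were compared within each age with the mouse as a block, the ages within each treatment without a block, and the difference of the Nrf2 effect over all 32 libraries. SEs were derived from the fold change and its F statistic, CPM used TMM library sizes, and differences between eyes used log2 CPM with a prior count of 2. Deeper libraries give scarce genes smaller counting error, and 3 counts were treated as the floor. The methods were first tested on simulated data. Each library is 1 eye. With the mouse as a block (the Nrf2 effects and their difference by age), *P* values measure how the difference between the eyes varies over mice. In the comparisons of age within a treatment, they measure the spread between eyes of different mice.

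The labels pair the eyes of a mouse. The mean correlation between the 2 eyes, as deviations from their groups, was 0.0231 (P20) and 0.101 (P40), over 0.1 in 3 mice at each age. Symbols and coordinates came from an annotation of GRCm38, promoters from RefSeq. Members and lists were chosen with earlier results of these data known. Genes passing in a comparison, or the 5 of smallest *P* where none did, are given in full, with up to 8 called pathway genes per comparison. Alternatives were DESeq2 1.42.0, limma 3.58.1 (voom with quality weights), RLE size factors, no filter, no block, each mouse or eye left out, and P20 mice 3 and 4 left out.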

Additional observations from a re-analysis of the deposited data

Results flagged for a closer look

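Within the 4 groups, the levels of each of the 34 genes were examined for an eye that stood apart from the rest of its group, by the gap from the highest or lowest eye to its nearest neighbor as a share of the range on the log2 CPM scale. Of 136 sets of eyes, 13 exceeded the critical value, and chance alone gives about 1 in 20. In P20 control eyes, *Irf1* was lowest in eye 4 (gap of 0.600 of the range) and *Ifit2* was lowest in eye 6 (0.713). Nrf2 eye 2 at P20 stood apart for 4 genes. It was highest for *Ddx58* (0.708) and *Mx1* (0.756) and lowest for *Irf9* (0.581) and *Gbp3* (0.733), and the same eye had the most T and NK cell and B cell marker RNA. In P40 control eyes, eye 8 was lowest for *Ifit3* (0.599) and *Mx2* (0.658) and highest for *Oas1a* (0.541), eye 9 was lowest for *Usp18* (0.538) and *Ifi44* (0.613), and eye 2 was lowest for *Stat2* (0.580). In P40 Nrf2 eyes, *Ddx58* was highest in eye 3 (0.526). The low *Ifi44* of P40 control eye 9 enters the fall of *Ifi44* with age, and the cause of these values was not tested.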

How the results depend on the processing

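The members called by edgeR numbered 2 and 4 for the Nrf2 effect at P20 and P40, 3 and 0 with age in control and Nrf2 eyes, and 0 for the difference between the ages. At P20 the number was 4 with DESeq2, 5 with limma voom, 0 without a filter (1.195% of all genes), and 1 without mice 3 and 4 (4.58% of all genes). It was 0 to 6 with each mouse left out (0.680% to 12.2% of all genes), with 6 only without mouse 4 (12.2%). At P40 it was 7 with limma voom (7.95% of all genes) and 1 to 6 with each mouse left out (1 without mouse 4 or 7, 6 without mouse 6). With each mouse left out, 3.12% (without mouse 7) to 5.99% (without mouse 6) of all genes passed. With age in control eyes it was 6 with DESeq2 (26.04% of all genes) and 1 without a filter (3.325%). Without P20 mice 3 and 4 it was 0 (0.9157%). With each eye left out it was 0 to 5, where 2.773% (without P20 eye 5) to 25.59% (without P40 eye 1) of all genes passed. With age in Nrf2 eyes it was 2 with DESeq2 (10.9% of all genes) and 7 with limma voom (13.2%), and 0 without any 1 eye or without mice 3 and 4. The difference between the ages gave 0 throughout. Of all 16303 genes tested at P20, edgeR called 556 (3.41%), DESeq2 1951 (11.97%), and limma voom 2605 (15.98%), and edgeR without mouse 4 called 1999 of 16330. The cause of these differences was not tested.

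Without the mouse as a replicate block, 2 members passed at P20 and 3 at P40 (*Bst2*, *H2-K1*, and *Mx1*), where 6.70% and 4.29% of all genes passed. Over all the alternatives, neither the median over the members nor any member described in full for its comparison changed sign. Of all members tested, 9 of 33 changed sign under at least 1 alternative at P20 and 10 of 34 at P40. With age it was 8 of 33 in control eyes and 10 of 34 in Nrf2 eyes, and 6 of 34 for the difference between the ages. The alternatives were also compared for the genes given in full and for the median over the members. Of these values, 560 stayed the same, which for a gene meant the same side of the threshold. For a median it meant a shift smaller than the spread of the member mean between mice or eyes. The 560 include values of genes that had not passed in the main fit and still did not. Among the single genes, 138 values no longer passed, and 4 newly passed. Of the numbers of members called under each alternative, 56 stayed equal or close to the main number, and 34 moved further. *H2-K1* at P40 passed in 14 of 14 alternatives and *Bst2* in 12 of 14, whereas at P20 *Bst2* passed in 6 of 13 and *Stat2* in 5 of 13. *Cxcl10* and *Mx2* had libraries at 3 counts or fewer, where counting error is large.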
